A study of Mus musculus with 10 samples.

Results

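The complement, coagulation and fibrinolysis genes described here are 42 mouse genes, found in the deposited table by their Ensembl identifiers. They are 23 genes of the complement system and 19 genes of coagulation and fibrinolysis, out of 55359 genes listed. All 42 were found, and 41 had enough reads to be tested, out of 24560 genes tested. Plg, the gene of plasminogen, was the exception, with 2 reads in 1 tumor.

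RNA sequencing was performed on 10 orthotopic tumors of the mouse pancreas. The 5 CTRL tumors came from normoglycemic animals on regular water, and the 5 D30 tumors from animals given 30% dextrose in their drinking water. All grew from luciferase-expressing KPC K8484, a pancreatic cancer cell line that carries Trp53 R172H/+ and Pdx1-Cre. Its cells were placed into the pancreas when the hosts, C57BL/6 J mice, were 10 weeks old. Both groups received the same cells, were imaged at day 7 and were then randomized, and the D30 comparison asks what 14 days of dextrose water changed in established tumors. The model is 1 cell line in an immunocompetent host, so each bulk sample mixes cancer cells with host stroma, vessels and leukocytes. The sample titles call the tumors PDX while the source names give KPC K8484 cells. The methods describe male and female mice in equal numbers, and sex is not given per tumor. Tumors are named here by their columns in the table, N for CTRL and T for D30, and none could be matched to a single animal. P values therefore measure the spread between these tumors.

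Complement is a cascade of plasma and cell-surface proteases. The C1 complex or lectins recognize a surface, C3 is cleaved, the anaphylatoxins C3a and C5a recruit leukocytes, and the terminal components assemble a membrane pore, while regulators on host cells hold the cascade back. Coagulation begins when tissue factor (F3) meets factor VII and activates factor X, which turns prothrombin into thrombin. Thrombin cleaves fibrinogen and signals through protease-activated receptors. The plasminogen system dissolves the clot and remodels matrix. The liver makes most of these proteins in the circulation, but macrophages, fibroblasts, vessels and cancer cells also make some of them, and tissue factor and the urokinase receptor are well known products of pancreatic cancer cells.

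Depth was similar in both groups. Recovered reads ranged from 29915331 to 42122304 per CTRL tumor and from 29192261 to 37126175 per D30 tumor. A pair of D30 tumors stood apart. T4 was the only tumor with reads from Y-linked genes, 841 reads against 0 in the other 9, and T5 had the fewest detected genes, 20482 against 23446 to 25912 in the other 9. Results that rest on them are given with and without them. No CTRL tumor had Y-linked reads, so the sequenced tumors do not show the equal numbers of male and female hosts that the methods describe. The part of host sex in the T4 values was not tested. Values below are normalized counts, which are reads over the size factor of each tumor, and a called gene has an adjusted p under 0.05 in limma's moderated test on log2(normalized count + 1), adjusted over all tested genes.

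The promoters of F3, F10 and Serpine2, 3 of the 4 called genes, are shown, and no window was available for Masp1. Each is the 250 bases before the start of the gene in RefSeq (GRCm38.p6), 5′ to 3′ on the strand of the gene. Capitals mark matches on either strand to AP-1 (TGANTCA) and the GC box (GGGCGG). The F3 window is chr3:121723287-121723536 on the plus strand, the F10 window is chr8:13037058-13037307 on the plus strand, and the Serpine2 window is chr1:79858666-79858915 on the minus strand, where a shorter RefSeq transcript of the gene starts.
F3: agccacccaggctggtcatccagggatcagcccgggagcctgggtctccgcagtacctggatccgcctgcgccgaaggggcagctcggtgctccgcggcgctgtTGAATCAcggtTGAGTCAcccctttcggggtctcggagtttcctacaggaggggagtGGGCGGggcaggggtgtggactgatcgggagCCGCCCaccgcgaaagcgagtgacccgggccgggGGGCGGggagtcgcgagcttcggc
F10: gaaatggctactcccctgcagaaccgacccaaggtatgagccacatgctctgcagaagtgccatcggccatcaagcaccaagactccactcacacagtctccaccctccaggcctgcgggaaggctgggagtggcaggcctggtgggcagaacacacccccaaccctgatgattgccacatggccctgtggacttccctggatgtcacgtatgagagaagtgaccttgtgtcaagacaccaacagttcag
Serpine2: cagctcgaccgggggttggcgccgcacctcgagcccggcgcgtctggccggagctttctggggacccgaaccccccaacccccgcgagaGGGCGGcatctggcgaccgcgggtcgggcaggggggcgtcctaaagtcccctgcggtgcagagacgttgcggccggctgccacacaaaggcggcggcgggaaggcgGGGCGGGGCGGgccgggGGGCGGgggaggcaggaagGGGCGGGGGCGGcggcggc
The F3 window holds 2 AP-1 matches, whose first bases lie 146 and 135 bases before the start, and 3 GC boxes. The Serpine2 window holds 6 GC boxes, of which some overlap. AP-1 matches occur in 6.75% of all 32851 promoter windows of this length and GC boxes in 32.7%. The E-box CACGTG (6.02%) and the TATA box TATAAA (12.4%) were also searched on both strands and matched none of the 3 windows. No motif of the 4 was found in the F10 window. A match describes letters in these windows.

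Of the 41 tested members, 4 were called, against 2.76% of all tested genes. F3 and F10 were higher in D30, where 1.4% of all tested genes were called higher, and Masp1 and Serpine2 were lower, where 1.36% were. The log2 fold change was positive for 13 members and negative for 28, with a median of −0.22, beside −0.06 over all tested genes. Leaving out F2 and C7, which had no read in any D30 tumor, the median was −0.18. An unadjusted p under 0.05 was reached by 14 of 41 members, against 17.3% of all tested genes, and by 12 of the 39 members without F2 and C7. The groups did not overlap for 6 members (F3, F10, Plaur, Masp1, C6 and F2), against 6.19% of all tested genes, or for 5 of 39 without F2 and C7. These 2 genes passed the filter on low values only through their CTRL reads.

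**Figure D1:**
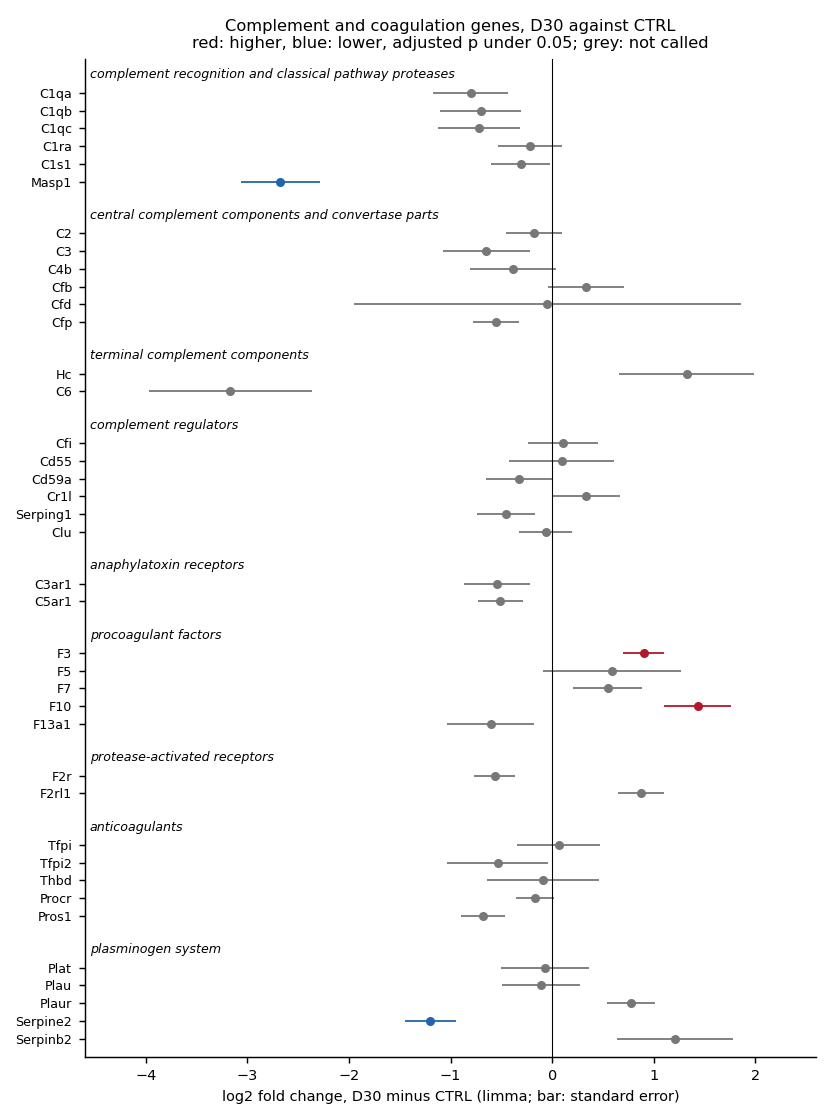
Log2 fold change of each tested member that had reads in both groups, D30 minus CTRL (x axis), by role (y axis), with bars for the standard error from limma. F3 (0.90) and F10 (1.43) are drawn in red as called higher, and Masp1 (−2.68) and Serpine2 (−1.20) in blue as called lower.

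Among the 23 complement members none was called higher and 1 was called lower, beside 1.4% and 1.36% of all tested genes. Their log2 fold changes were positive for 5 and negative for 18, with a median of −0.39 (−0.36 without C7). Among the 18 tested coagulation and fibrinolysis members 2 were called higher and 1 lower, beside the same shares. Their log2 fold changes were positive for 8 and negative for 10, with a median of −0.08 (−0.07 without F2). Without T4 and T5, 15 of 41 members were called, beside 9.97% of all tested genes. Of these, 5 were higher (F3, F10, F2rl1, Hc and F5, beside 5.09% of all tested genes) and 10 were lower, beside 4.87% (Masp1, C6, Serpine2, Pros1, F2r, C5ar1, C1qb, Plat, F13a1 and Thbd). Both tumors left out are D30 tumors singled out from these same data. For Hc, F5, Thbd and Plat they held the D30 values furthest against the direction called. Adjusted p values without T4 and T5, here and below, therefore describe the remaining tumors only. Without T4 alone 9 of 41 members were called (6.43% of all tested genes) and without T5 alone 4 of 41 (3.54%). On recovered reads edgeR called 6 of 39 (4.13%) and DESeq2 8 of 37 (8.17%), and library-size scaling called 6 of 41, all lower (3.51%).

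Among the 6 procoagulant factors, 2 were called higher. Tissue factor, F3, is the membrane receptor that starts the extrinsic pathway and lies at chr3:121723537-121735048 (GRCm38, plus strand). Its normalized counts were 2456, 2951, 3228, 2257 and 2318 in the CTRL tumors N1, N2, N4, N5 and N6. In the D30 tumors T1, T2, T4, T5 and T7 they were 5814, 4396, 5744, 5785 and 3261. All D30 tumors stood above all CTRL tumors, although T7 lay only just above N4. The means were 2642 ± 426 in CTRL and 5000.1 ± 1143 in D30 (SD, n = 5 each), a ratio of 1.89. The log2 fold change was 0.90 (SE 0.205, limma adjusted p = 0.0341) and ranged from 0.68 to 1.05 over the 19 alternatives, in 11 of which it passed. It lost the call with library-size scaling (adjusted p = 0.079) and without any 1 of N1, N2, N5, N6, T1, T2 or T5, where the limma adjusted p lay between 0.056 and 0.108.

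Factor X, F10, is the protease that tissue factor and factor VII activate, and its gene lies at chr8:13037308-13056676 (plus strand). CTRL values were 353, 257, 362, 156 and 305 and D30 values were 408, 743, 653, 1411 and 814 in the same order of tumors. The groups did not overlap, and T5 was highest and T1 lowest among the D30 tumors. The means were 287 ± 84.3 and 806 ± 371 (SD, n = 5 each), a ratio of 2.81, and the log2 fold change was 1.43 (SE 0.329, limma adjusted p = 0.035). It stayed positive in all 19 alternatives, from 1.19 to 1.65, and passed in 11. It lost the call with library-size scaling (adjusted p = 0.062) and without any 1 of N1, N2, N4, N5, N6, T2 or T7 (0.051 to 0.103).

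F7, whose gene ends 1498 bases before F10 starts on the same chromosome, encodes factor VII, the partner of tissue factor. Its means were 207 ± 80.2 in CTRL and 315 ± 159 in D30, with a log2 fold change of 0.55 (limma adjusted p = 0.445), and the ranges overlapped. F5, the cofactor of factor X, ranged from 88.9 to 332 in CTRL and from 41.6 to 776 in D30. Its log2 fold change was 0.59 (limma adjusted p = 0.709), T4 held the lowest value of all 10 tumors, and without T4 and T5 it was 1.65 (adjusted p = 0.0169). Prothrombin, F2, was almost unread, with 14 reads over the CTRL tumors, at most 4 in any of them, and 0 in every D30 tumor, so that no fold change is given. F13a1, the transglutaminase subunit that crosslinks fibrin and a macrophage product in tissue, had means of 2141 ± 435 and 1776 ± 1535. T4 held its highest value, 4433, while the other D30 tumors lay between 541 and 1631, and without T4 its log2 fold change was −1.03 (limma adjusted p = 0.0403).

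**Figure D2:**
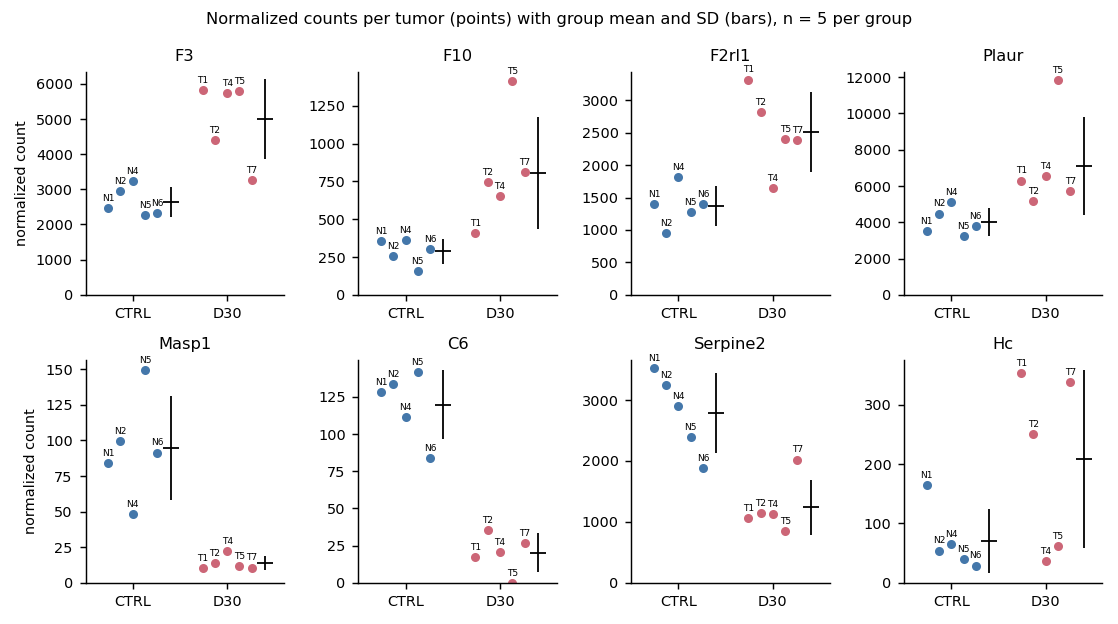
Normalized counts (y axis, from 0) of 8 members in every CTRL (N) and D30 (T) tumor, with black bars for the group mean and SD (n = 5). The groups do not overlap for F3, F10, Plaur, Masp1 and C6, while 1 D30 tumor reaches into the CTRL range for F2rl1 and Serpine2.

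Both protease-activated receptors among the members were read in every tumor, and their log2 fold changes lay on opposite sides of 0. F2rl1 (PAR2), which factor X with tissue factor and factor VII can activate, measured 1400, 948, 1821, 1277 and 1404 in CTRL and 3319, 2822, 1649, 2402 and 2385 in D30. The D30 tumors were above all CTRL tumors with the exception of T4. The means were 1370 ± 313 and 2515 ± 616 (SD, n = 5 each), a ratio of 1.84, and the log2 fold change of 0.87 (SE 0.226) missed the threshold (limma adjusted p = 0.0604). It passed without T4 (1.01, limma adjusted p = 0.00754) and on recovered reads in edgeR (adjusted p = 0.0449) and DESeq2 (adjusted p = 0.0112). F2r (PAR1), the main thrombin receptor, lies 76575 bases away on chromosome 13 and had means of 7657 ± 1127 in CTRL and 5253 ± 1267 in D30, with a log2 fold change of −0.56 (limma adjusted p = 0.166). Without T4 and T5 it was −0.80 (adjusted p = 0.00744).

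No anticoagulant was called by limma, where 1 of 5 had an unadjusted p under 0.05, or by edgeR, and DESeq2 called Pros1 lower. Pros1, the protein S cofactor, ranged from 550 to 1007 in CTRL and from 403 to 569 in D30, with a log2 fold change of −0.68 (limma adjusted p = 0.124), −0.74 without T4 (adjusted p = 0.04995) and −0.82 without T4 and T5 (adjusted p = 0.0216). Tfpi, the inhibitor of tissue factor, had means of 252 ± 97.9 and 295 ± 181 (log2 fold change 0.07), and its paralog Tfpi2 had 114 ± 63.1 and 85.0 ± 58.7 (−0.54). Procr, the endothelial protein C receptor, had 2228 ± 260 and 2005 ± 377 (−0.17). Thbd, thrombomodulin, depended on 1 tumor. T5 measured 1952, the other D30 tumors 168 to 274 and the CTRL tumors 275 to 487, so that the log2 fold change was −0.09 with all tumors and −0.86 without T4 and T5 (limma adjusted p = 0.0252).

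Endothelium makes several of these receptors and anticoagulants, and its markers are given beside them. The summed level of 10 endothelial markers was 14672 to 22062 in CTRL and 7399 to 12598 in D30, without overlap. All 10 had negative log2 fold changes, and 1 was called lower, Cdh5, the cadherin of endothelial junctions (−1.45, limma adjusted p = 0.0117). Cdh5 alone measured 7205 to 14529 in CTRL and 2480 to 6142 in D30, a large part of the sum. It was the only 1 of the 10 markers whose groups did not overlap, so the gap between the sums leans on this gene. In bulk tumors, fewer cells of a type and less RNA per cell cannot be told apart. The part of vessel content in the values of Pros1, Thbd, Procr and F2r was not tested.

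In the plasminogen system the protease inhibitor Serpine2 (protease nexin-1), which blocks thrombin, urokinase and tissue plasminogen activator, fell. The gene lies at chr1:79794197-79861180 (minus strand). CTRL values were 3522, 3244, 2897, 2395 and 1886 and D30 values were 1056, 1143, 1128, 852 and 2021. T7 stood above N6, so the groups overlapped, and the other D30 tumors lay below every CTRL tumor. The means were 2789 ± 657 and 1239.8 ± 452 (SD, n = 5 each), 2.25-fold higher in CTRL, with a log2 fold change of −1.20 (SE 0.25, limma adjusted p = 0.0222). It was negative in all 19 alternatives, from −1.42 to −1.02, passed in 14, and lost the call without any 1 of N1, N2, N4, N5 or T2 (0.051 to 0.081). Fibroblasts express Serpine2. The 10 fibroblast markers all had negative log2 fold changes and none was called by limma. Of them 8 had an unadjusted p under 0.05 in limma, beside 17.3% of all tested genes, and DESeq2 called 2 lower and edgeR none. Their sum was 77694 to 138092 in CTRL and 28472 to 104035 in D30. The part of fibroblast content in this result was not tested.

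The urokinase receptor Plaur, which holds urokinase at the cell surface, measured 3515, 4480, 5103, 3240 and 3789 in CTRL and 6295, 5175, 6537, 11861 and 5716 in D30. The groups did not overlap, T2 being only just above N4 and T5 far above the rest. The means were 4025 ± 758 and 7117 ± 2704 (SD, n = 5 each), a ratio of 1.77, and the log2 fold change of 0.77 (SE 0.234) was not called by limma (adjusted p = 0.105), while DESeq2 on recovered reads called it (adjusted p = 0.0359). Its ligand urokinase, Plau, had means of 616 ± 184 and 633 ± 374 (log2 fold change −0.11).

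Tissue plasminogen activator, Plat, split the D30 tumors. T4 and T5 measured 15465 and 17619, above every CTRL tumor (6163 to 9406), and T1, T2 and T7 measured 4195, 3531 and 4097, below every CTRL tumor. The log2 fold change was −0.07 with all tumors and −0.90 without T4 and T5 (limma adjusted p = 0.00501). Serpinb2 (PAI-2), an inhibitor of urokinase, measured 78.9, 43.4, 107, 21.2 and 75.3 in CTRL and 42.2, 219, 139.9, 357 and 88.4 in D30. The D30 tumors spread over the CTRL range and beyond it, and the log2 fold change of 1.21 (SE 0.571) was not called (limma adjusted p = 0.297). The gene overlaps Serpinb10 on the same strand, so that some reads may be split between them.

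Recognition and the early proteases of complement held the largest change among the called members. Masp1, a serine protease that acts with mannose-binding lectin and ficolins, lies at chr16:23449417-23520815 (minus strand) and overlaps Rtp4 and 2 predicted genes on the opposite strand. The libraries were strand-specific, but whether the counting used the strand is not given in the sources used here. Its values were 84.2, 99.8, 48.4, 149.6 and 91.6 in CTRL and 10.3, 13.7, 22.0, 11.4 and 10.7 in D30. Every D30 tumor was below every CTRL tumor. The means were 94.7 ± 36.4 and 13.6 ± 4.86 (SD, n = 5 each), 6.95-fold higher in CTRL, with a log2 fold change of −2.68 (SE 0.388, limma adjusted p = 0.00376). It passed in all 19 alternatives, with values from −2.89 to −2.44. Masp1 was nonetheless a low transcript, at 9.63 normalized counts per kb of exon in CTRL and 1.39 in D30.

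The subunits of C1q, which binds antibody and dying cells, are encoded side by side on chromosome 4, with C1qc 2851 bases from C1qa and 3616 bases from C1qb. None was called, at log2 fold changes of −0.80 for C1qa, −0.71 for C1qb and −0.72 for C1qc (limma adjusted p = 0.283, 0.396 and 0.386). Their summed level was 17820, 16164, 11257, 9672 and 12117 in CTRL and 7293, 8468, 18003, 2825 and 9230 in D30. T4 held the highest sum of all 10 tumors, and the other D30 tumors lay below every CTRL tumor. Without T4, the log2 fold change of C1qb was −1.06 (limma adjusted p = 0.0490), and C1qa (−1.03, 0.0794) and C1qc (−1.04, 0.0750) missed the threshold. In the composition of the sum, C1qa made up 30.2% to 40.7%, C1qb 32.0% to 41.6% and C1qc 25.1% to 28.2% in the 10 tumors.

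Macrophages are the main tissue source of C1q, and their markers are given beside it. The summed level of 10 macrophage markers was 20869 to 47533 in CTRL and 10187 to 61193 in D30, highest in T4 and lowest in T5. As for the C1q sum, the other 4 D30 tumors, at 10187 to 16964, lay below every CTRL tumor, and 9 of the 10 markers had negative log2 fold changes. Most of the T4 value was Lyz2, and without that gene the T4 sum was 14976, inside the CTRL range. Of the 10 markers, 2 were called lower, the receptor Csf1r (−1.06, limma adjusted p = 0.0449) and the scavenger receptor Cd163 (−2.12, limma adjusted p = 0.0174). C1q transcripts per 100 macrophage marker counts ranged from 27.7 in T5 to 63.6 in T7. The part of macrophage content in the C1q values was not tested.

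**Figure D3:**
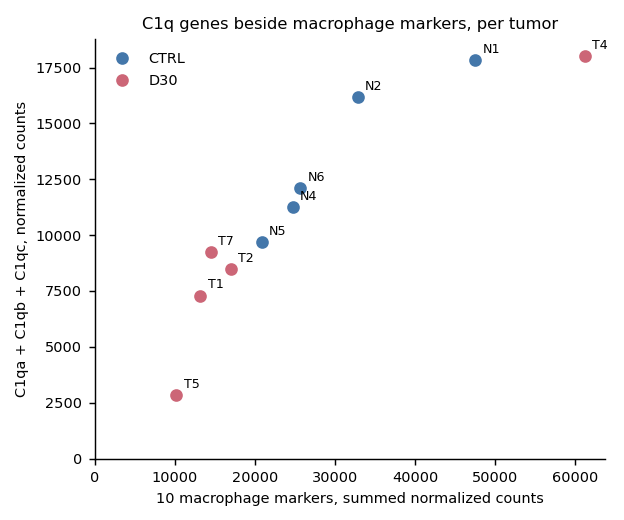
Summed normalized counts of C1qa, C1qb and C1qc (y axis) against the summed normalized counts of 10 macrophage markers (x axis), 1 point per tumor. T4 (18003) and N1 (17820) are at the top right, and T5 (2825) is at the bottom left.

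C1ra and C1s1, the proteases of the C1 complex, are neighbours on chromosome 6 and were not called, with log2 fold changes of −0.22 and −0.31 on means of 364 ± 106 against 324 ± 145 and 908 ± 176 against 776 ± 343. Among the central components C3, the hub of all pathways, ranged from 1605 to 4204 in CTRL and from 579 to 3414 in D30 (log2 fold change −0.65, limma adjusted p = 0.472), and C4b from 3308 to 6649 and from 1213 to 9181 (−0.39). T4 held the lowest value of all tumors for both. Properdin, Cfp, which stabilizes the alternative pathway convertase, had means of 1097 ± 227 and 753 ± 193 (−0.55, limma adjusted p = 0.233). C2 (−0.18) and Cfb (0.33), adjacent genes on chromosome 17 for the proteases of the classical and alternative convertases, lay on opposite sides of 0 and neither was called. They share a strand with the readthrough gene model Gm20547, so that some of their reads may be split.

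Cfd, the alternative pathway protease known as adipsin, is a product of fat cells. N4 measured 2224, and the other 9 tumors lay at 94.6 or below, 3 of them at 0. Adipoq, the adiponectin gene of fat cells, was 271 in N4 and at most 7.46 in the others. The means of 448 ± 993 in CTRL and 29.5 ± 39.4 in D30 therefore rested on 1 tumor. The log2 fold change was −0.05 with all tumors, 1.87 without N4 and −3.90 in edgeR on recovered reads, and it was not called in any fit. The sum of 10 adipocyte markers was 4573 to 7337 in CTRL and 3712 to 6585 in D30, and none of them was called by limma, edgeR or DESeq2 or had an unadjusted p under 0.05 in limma.

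Terminal components were few and uneven. C6, which joins the pore after C5b, measured 128, 134, 111, 142 and 83.9 in CTRL and 17.5, 35.5, 20.8, 0 and 26.6 in D30. The groups were far apart, and T5 had no read. The means were 119.8 ± 22.9 and 20.1 ± 13.1 (SD, n = 5 each), 5.96-fold higher in CTRL, but the log2 fold change of −3.17 (SE 0.802) just missed the threshold (limma adjusted p = 0.0549). It passed in 7 of 19 alternatives, among them without T5 (−2.23, limma adjusted p = 0.00319), without T4 (−3.35, adjusted p = 0.0308) and in edgeR on recovered reads (−2.56, adjusted p = 0.0439). C7, which joins after C6 and lies 173794 bases from it on chromosome 15, had 13 reads in CTRL, at most 6 in a tumor, and 0 in every D30 tumor, so no fold change is given.

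Hc, the mouse gene of C5, measured 164, 54.2, 64.9, 39.8 and 29.1 in CTRL and 354, 251, 37.0, 61.8 and 338 in D30. T1, T2 and T7 were above every CTRL tumor and T4 and T5 were inside the CTRL range. The log2 fold change was 1.32 (SE 0.661, limma adjusted p = 0.327), and 2.39 without T4 and T5 (limma adjusted p = 0.00417). C6 and Hc, on either side of the same assembly step, thus had values of opposite sign.

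Because the liver is the main source of plasma complement and clotting proteins, hepatocyte markers were read beside them. Of 8 tested markers 2 were called lower, the albumin gene Alb (13.7 to 59.3 in CTRL and at most 1.15 in D30, limma adjusted p = 0.000808) and the transthyretin gene Ttr (−1.53, limma adjusted p = 0.0237). The enzyme gene Cps1 and Serpina3k had at most 3 reads in any tumor. The log2 fold changes were positive for 2 of the 8 and negative for 6, with a median of −0.76, and 3 had an unadjusted p under 0.05 in limma. The sum of the list was 21066 to 26714 in CTRL and 18494 to 34617 in D30, and it came almost wholly from listed genes other than Alb. The part of liver-type transcripts in the values of C6, F2 and C7 was not tested.

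None of the 6 complement regulators was called by limma, edgeR or DESeq2, 0 had an unadjusted p under 0.05 in limma, and their median log2 fold change was 0.01. Clusterin, Clu, a secreted chaperone that keeps the terminal complex from inserting into membranes, was by far the most abundant member, with means of 260599.7 ± 60589.9 in CTRL and 249368 ± 58281 in D30 (log2 fold change −0.07). It took 0.443% to 1.10% of all reads and ranked 7 among all tested genes in counts per kb of exon. Cfi, the protease that inactivates C3b and C4b, had 3215 ± 1239 and 3567 ± 1568 (0.10). Serping1, the C1 inhibitor, had 2379 ± 793 and 1713 ± 543 (−0.45). Cr1l, the rodent membrane regulator Crry, ranged from 1730 to 3190 in CTRL and from 1646 to 2459 in the D30 tumors other than T4, which measured 6735. Of the membrane regulators Cd55 and Cd59a, the first was low (32.1 ± 16.6 and 31.7 ± 14.2) and the second had 230 ± 109 and 176 ± 49.2, and neither was called.

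The anaphylatoxin receptors, carried mainly by myeloid cells, were not called by limma, edgeR or DESeq2, and 1 of the 2 had an unadjusted p under 0.05 in limma. C3ar1 had means of 681 ± 126 and 509 ± 223 (log2 fold change −0.54), and C5ar1 had 474 ± 92.6 and 333 ± 70.2 (−0.51, limma adjusted p = 0.251). Without T4 and T5 the value of C5ar1 was −0.66 (limma adjusted p = 0.0438). Neutrophils also carry C5ar1, and the 10 neutrophil markers had 9 positive log2 fold changes and no call by limma (3 at an unadjusted p under 0.05), while edgeR and DESeq2 each called Mmp8 higher. Their sum was 1487–5035 per CTRL tumor and 1658–18684 per D30 tumor. Their part in the C5ar1 values was not tested.

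**Figure D4:**
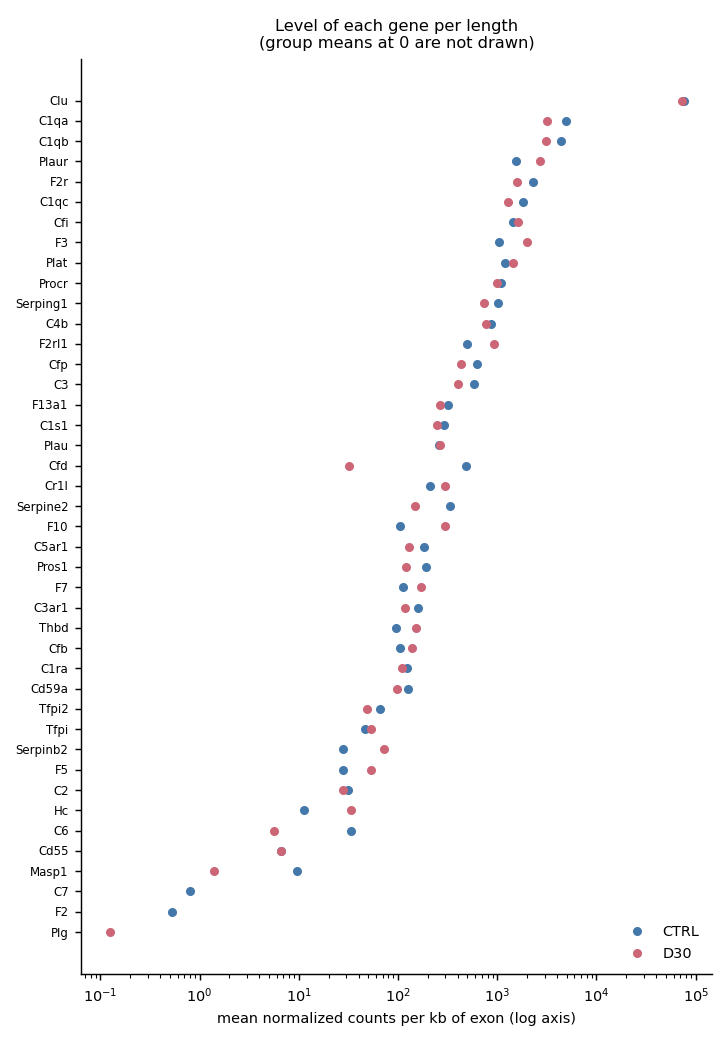
Mean normalized counts per kb of exon (x axis, log scale) of each member with reads, in CTRL (blue) and D30 (red), ordered by the mean of all 10 tumors. Clu is at the top, more than an order of magnitude above C1qa, and C7, F2 and Plg at the bottom have reads in only 1 of the groups.

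Per kb of exon and averaged over all 10 tumors, Clu had 74188 normalized counts, followed by C1qa with 4022, C1qb with 3742, Plaur with 2129, F2r with 1935, C1qc with 1570, Cfi with 1527 and F3 with 1512. The high ranks held macrophage, surface receptor and regulator transcripts. Masp1 was at 5.51, and the levels of C7, F2 and Plg were lower still. The clotting cascade was read in part only, with F3, F7, F10 and F5 present in every tumor and prothrombin close to 0.

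Single D30 tumors weighed heavily on the members. T5 held the lowest value of all 10 tumors for 11 of 41 members and the highest for 8, and T4 the highest for 8 and the lowest for 7. T5 was highest for F10, Plaur, Plat, Thbd and Serpinb2 and lowest for the C1q genes, C6 and Serpine2. T4 was highest for F7, F13a1 and Cr1l and lowest for C3, C4b and F5.

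**Figure D5:**
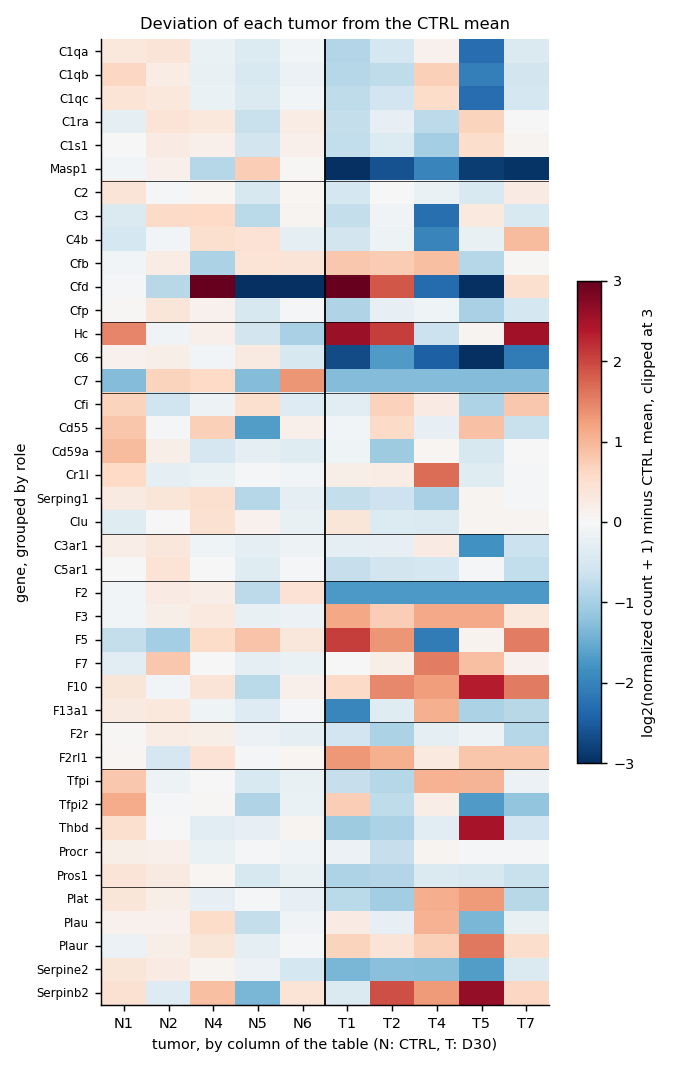
Deviation of each tumor from the CTRL mean in log2(normalized count + 1), colored from −3 (blue) to 3 (red) and clipped there, for the 41 tested members by role (rows) and tumor (columns). Masp1 and C6 are blue in all 5 D30 tumors and F3 and F10 are red in all 5, while T4 and T5 often differ from T1, T2 and T7.

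Of the wider pathway, 31 of 38 other complement genes were tested and none was called by limma (2.76% of all tested genes). An unadjusted p under 0.05 in limma was reached by 6 of the 31, beside 17.3% of all tested genes. On recovered reads edgeR called none of 22 (4.13% of all tested genes) and DESeq2 called 2 of 26 (8.17%). Their log2 fold changes were positive for 11 and negative for 20, with a median of −0.26. Of 43 other coagulation and fibrinolysis genes 36 were tested. None was called higher and 2 were called lower by limma, beside 1.4% and 1.36% of all tested genes. The median log2 fold change was −0.06, and edgeR called 3 of 26 (4.13%) and DESeq2 8 of 34 (8.17%). Habp2, a protease that can activate factor VII and urokinase, measured 148, 277, 79.5, 490 and 215 in CTRL and 9.25, 9.16, 3.47, 0 and 12.8 in D30. No D30 tumor came near the CTRL range, the log2 fold change was −5.14 (SE 0.704, limma adjusted p = 0.00261), and it passed in all 19 alternatives. Gas6, a vitamin K-dependent ligand of TAM receptors related to protein S, had CTRL values of 1274, 1504, 1145, 856 and 1241 and D30 values of 462, 631, 344, 125 and 588, again without overlap (−1.66, SE 0.381, limma adjusted p = 0.035). It passed in 13 of 19 alternatives.

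The remaining marker lists bear on what else the tumors held. The sum of 10 tumor epithelium markers was 224877 to 355401 in CTRL and 377706 to 500656 in D30, without overlap. Their log2 fold changes were positive for 8 and negative for 2, and 9 of 10 had an unadjusted p under 0.05 in limma, beside 17.3% of all tested genes. The 1 limma call was one of the negative genes, the claudin gene Cldn7 (−2.59, adjusted p = 0.04998), while DESeq2 called the keratin genes Krt18 and Krt7 higher and Cldn7 lower, and edgeR called none of 9. F3, F10, F2rl1 and Plaur lay on the same side as this sum, and the part of cancer cell content in them was not tested. Of 9 tested platelet markers 1 was called higher, Gp9 (2.47, limma adjusted p = 0.00482), and Gp1bb had no reads. Their sum was 575 to 865 in CTRL and 440 to 4776 in D30, highest in T4, where most of it was a single gene, Pf4 (4378). Mesothelial markers summed to 55926 to 64417 in CTRL and 57860 to 150123 in D30, with 5 positive and 5 negative log2 fold changes. Limma called the mucin gene Muc16 lower (−4.22, adjusted p = 0.00519), edgeR also called Upk3b higher, and DESeq2 also called Upk3b, Krt7 and Upk1b higher. Krt7 is on the tumor epithelium list as well, so its counts and its call enter both lists. Acinar markers summed to 276 to 68906 in CTRL and 144 to 6743 in D30, with no gene called by limma (4 at an unadjusted p under 0.05), edgeR or DESeq2.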

How the data were processed

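Bulk RNA was sequenced from 10 tumors in strand-specific libraries with paired 150-base reads. The submitters' notes and the methods name CASAVA, FastQC, Trim Galore, STAR 2.7.0e and DESeq2, and the study also lists RSEM, a quantifier, without settings. The notes name GRCm39 and the methods hg38, while the table lists mouse Ensembl identifiers. The annotation release and the settings of the counting step, strand included, are not given in the sources used here. The authors deposited 1 normalized count signal per gene and tumor, in which reads are divided by a size factor. In every column 100% of values were whole multiples of 1 read (tolerance 0.01), so reads were recovered. N columns were taken as CTRL by their letter and T columns as D30, the only other group. A further allele of the cell line is not reported here.

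Genes with a mean of at least 1 were tested with limma 3.58.1 (R 4.3.3, mean-variance trend, no covariate) on log2(normalized count + 1), with Benjamini-Hochberg adjustment over all tested genes and a threshold of 0.05. The pseudocount understates changes of low genes. The test was checked on simulated counts with 200 changed genes, of which limma recovered 76.5%, edgeR 78.5% and DESeq2 77%. The share of false calls was 7.27% for limma, 5.42% for edgeR and 14.4% for DESeq2. The simulation set the spread of a gene from its mean alone, equally in all tumors, without outlying tumors such as T4 and T5. Its changes were placed only in genes with a mean of at least 10. These shares need not hold for the tumors, and the share of false calls among those made by DESeq2 alone is not known. Recovered reads were also tested with edgeR 4.0.16 (quasi-likelihood, 707 genes called) and DESeq2 1.42.0 (1833 called). Other alternatives were library-size and TMM scaling, pseudocounts of 0.5 and 4, no filter, a mean of at least 10, leaving out each tumor, and leaving out T4 and T5 together. Names, positions and exon lengths came from GENCODE M21 (GRCm38), which matched 94.1% of identifiers and all 42 members. RefSeq promoter windows matched 29 of 42 members.

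The members, pathway lists and marker lists were chosen with earlier results of these data known, so counts and medians over them are descriptions. Over all tested genes, limma called 2.76%, edgeR 4.13% and DESeq2 8.17%, and 17.3% had an unadjusted p under 0.05 in limma. Values in every tumor are given for members that were called, that did not overlap between groups, or whose log2 fold change was at least 1 in size at a mean of at least 10. F2rl1 and the sum of the C1q genes were added after their values were seen. Of other pathway genes only those called are named.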

Additional observations from a re-analysis of the deposited data

Results flagged for a closer look

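Within each group of 5 tumors, the log2 value of every tested member was examined for a tumor whose gap to its nearest neighbour took more than 0.71 of the group's range (Dixon's limit). Of 82 groups examined, 4 exceeded it, and chance alone gives about 1 in 20. All 4 were in D30 tumors. C6 was 0 in T5, where the nearest tumor, T1, had 17.5 normalized counts (gap 0.811 of the range). Thbd, thrombomodulin, was 1952 in T5 and at most 274 in the other D30 tumors (0.800). Plaur, the urokinase receptor, was 11861 in T5 beside 6537 in T4 (0.718). Cr1l, the membrane regulator Crry, was 6735 in T4 beside 2459 in T2 (0.715).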

How the results depend on the processing

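Calls among the members were 4 with all tumors, 8 of 37 with DESeq2 on recovered reads (beside 8.17% of all genes), 15 without T4 and T5, and 1 to 9 when single tumors were left out. The count was 1 without N1, N2, N5 or T2, 2 without N4 or N6, and 9 without T4, beside 6.43% of all genes. Masp1 was called in each of these fits. Over all genes, 678 were called with all tumors, 1833 with DESeq2, 2418 without T4 and T5, and 279 (without N2) to 1573 (without T4) when single tumors were left out, with 340, 332 and 433 without N5, N6 and T7. Library-size scaling moved the median log2 fold change of all genes from −0.06 to −0.27. It gave 240 higher and 624 lower calls, against 344 and 334 with the authors' scaling and 457 and 250 with edgeR. Its 6 called members were all lower (Masp1, C6, Serpine2, Pros1, F2r and F2), of which F2 had no D30 read and could only be lower. F3 and F10 stayed positive under library-size scaling, at 0.68 and 1.21.

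The sign turned in at least 1 alternative for 10 members. These were Cd55 (−0.32 to 0.30), Cfd (−3.92 to 1.87), Tfpi (−0.57 to 0.30), Cfi (−0.12 to 0.40), Clu (−0.29 to 0.05), Plau (−0.40 to 0.20), C4b (−0.72 to 0.08) and Cr1l (−0.0022 to 0.51), which were called in no fit, and Thbd and Plat, which were called lower without T4 and T5. Thbd, −0.09 with all tumors, was 0.67 in edgeR and 0.66 in DESeq2, and 0.03, 0.15, 0.12 and 0.03 without N1, T1, T2 and T7, with a range from −0.73 (without T5) to 0.15 when single tumors were left out. Plat, −0.07 with all tumors, was 0.29 and 0.28 in these tools and 0.02, 0.12, 0.18 and 0.12 without the same tumors, with a range from −0.40 (without T5) to 0.18. Neither was called in the fits where the sign turned. The cause was not tested.

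No paired analysis was possible because the columns carry other numbers than the labelled replicates and have only a group each. With 5 tumors a group, a member with as few reads as Plg, 2 in all, cannot show a difference.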
